A study of Mus musculus with 6 samples.

Results

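This section describes the 2 arrays that set kidney RNA of amodiaquine-treated mice directly against kidney RNA of vehicle-treated mice. They are 2 of the 6 arrays, each read in 2 colours, of the study and the only pair whose scans were independent. In the amodiaquine pair, 0.0911% of the Cy3 and 0.122% of the Cy5 foreground values of replicate 2 also stood in replicate 1, against 28.2% to 41.9% in the pairs of the other treatments. The treated mice were male Swiss albino mice of 8 to 10 weeks that received amodiaquine at 120 mg/kg. The vehicle mice were of the same strain, sex and age and received DMSO, and the mice were kept for 24 h after dosing. The labels give 4 mice per group and do not say how their RNA was divided or pooled between arrays. By the labels, amodiaquine RNA was in Cy5 (red dye) and vehicle RNA in Cy3 (green dye) on replicate 1, and the dyes were exchanged on replicate 2. The spread between the arrays may therefore be technical, and how far vehicle mice differ among themselves was not measured.

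A spot was counted as measured when its signal-to-noise ratio was at least 2 and its local background was above 0 in both dyes on both arrays. This left 540 of 23040 spots (2.34%), in 36 of 48 blocks of 480 spots, and 326 of them carried a probe for 1 named gene. Near that limit, the lowest of the 4 signal-to-noise ratios was 2.033 for Sox7 and 2.054 for Kifc3, just inside, and 1.995 for Hells and 1.965 for Elavl4, just outside. The spot grid was displaced in many blocks, so a name can stand beside the wrong spot. On each array, a block was taken as in register if neither dye needed a shift for its best match to a pool of scans. That pool held the single scans of the other treatments and also the other amodiaquine array. The dyes of the block further needed a rank correlation of at least 0.5. These conditions held on both arrays in 17 blocks, which held 400 measured spots and 241 probes for 234 named genes. The choice of these blocks thus used in part how well the amodiaquine arrays matched each other. All genes named below come from these blocks unless stated. The dyes differed in quality. Cy3 of replicate 1, the vehicle reading there, had a median foreground of 455 and a recorded background of 0 at 7079 spots, while the medians of the other 3 readings were 972 to 1276 and at most 1 spot had a background of 0.

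Amodiaquine is a 4-aminoquinoline antimalarial and a weak base that accumulates in acidic compartments such as the lysosome. The kidney is a site of drug handling and is dominated by the tubular epithelium. Proximal tubule cells reabsorb solutes and protein through transporters and endocytic receptors and are rich in mitochondria, while the thick ascending limb secretes uromodulin and reabsorbs salt.

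The first question was which transcripts the arrays read brightest in each RNA. In each of the 4 readings (2 dyes on 2 arrays), a gene's brightest probe was ranked among the 480 spots of its block, and the rank is given as a percentile. Brightness also depends on the probe, so a percentile orders spots and is not an amount of transcript. Among the 4319 named genes in register, measured spots or not, the median mean percentile was 48.5 and 410 genes (9.49%) lay above percentile 90. Ribosomal protein genes, genes of mitochondrial respiration and tubule markers lay well above this median. The 16 translation factor genes lay less far above it, at a median of 63.7 with 2 genes above percentile 90. Glomerular and endothelial markers (35.5) and cell cycle genes (38.4) lay below it. Over all 48 blocks these 2 medians were 45.9 and 52.4, against 53.3 for all genes, so cell cycle genes lay near the all-gene median there. With all probes in place of each gene's brightest, the 2 medians over all blocks were 39.0 and 39.3, against 47.2 for all genes.

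Ribosomal protein genes, which encode the structural proteins of the ribosome, had a median percentile of 88.4 over 37 genes, and 13 of them lay above percentile 90. Rpl41 had the highest mean percentile of the list at 99.2, and Rpl17 followed at 98.8. Rpl17 read 98.8 in both amodiaquine readings and 99.0 and 98.8 in the vehicle readings of replicates 1 and 2. At the low end, Rps27 had a mean of 39.1 and Rpl36a a mean of 36.6. The medians of the list were 88.0 in amodiaquine RNA and 89.0 in vehicle RNA.

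A feature of these genes that the selection did not use lies at their transcription start. Many ribosomal protein and elongation factor transcripts begin with a pyrimidine tract that ties their translation to growth signals. The 30 bases around the annotated start (15 before and 15 after, gene strand, RefSeq, build GRCm38.p6) are shown to set such starts beside those of tubule genes. The capitals mark CTTTC or CTTCC, the 5-base motifs searched.
Rps24, chr14:24490663-24490692, plus strand: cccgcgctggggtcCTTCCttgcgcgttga
Eef1a1, chr9:78481710-78481739, minus strand: gctggctccgccctCTTCCcgagggtgggg
Rps6, chr4:86857353-86857382, minus strand: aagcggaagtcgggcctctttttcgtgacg
Slc6a19, chr13:73692622-73692651, minus strand: tagctgcaggctgcctactctgaccactcc
Umod, chr7:119479248-119479277, minus strand: cacagaaacaatctcagagggcagaagcag
The starts of Rps24 and Eef1a1 held CTTCC, and those of the tubule genes Slc6a19 and Umod held neither motif in this window. Rps6 held neither motif as spelled, but its window has an unbroken pyrimidine run, cctctttttc. A search for the 5-base motifs thus missed this run. Over the genes with an entry, 13 of 29 ribosomal protein genes in register (44.8%) held a motif on their own strand. Over all 27025 genes with an entry the share was 12.1%. On the other strand the shares were 17.2% and 12.2%. On their own strand the share was 13.0% over all named genes in register and 14.9% over those above percentile 90. For translation factor genes in register it was 27.3% (3 of 11), with 9.09% on the other strand. For oxidative phosphorylation genes in register it was 23.8% (5 of 21), with 9.52% on the other strand. The windows shown were chosen after the brightness values were seen, and a match is a description of the letters only.

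Genes of oxidative phosphorylation, the mitochondrial electron transport chain and ATP synthase, had a median percentile of 89.8 over 27 genes, with 13 above percentile 90. Atp5g3, a subunit of the ATP synthase membrane ring, was at percentile 99.0 in all 4 readings. Cyc1, cytochrome c1 of complex III, had a mean of 98.3. The list's median was 89.8 in amodiaquine RNA and 89.8 in vehicle RNA. The list's median over all 48 blocks was lower, at 77.9. Of the citric acid cycle, Pcx, Mdh1 and Idh1 lay above percentile 90 among 12 genes with a median of 71.1.

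The labelled tissue was set against its markers. The layout that names the probes was chosen with brightness known, so bright markers under it are a description and no independent check of the tissue. With names by spot number the median of the proximal tubule markers over all blocks was 46.9 in place of 86.2. Of the defining markers in register, Umod, the urinary protein of the thick ascending limb, had a mean percentile of 97.0. Miox, a proximal tubule enzyme of inositol breakdown, stood at 94.4, and Lrp2, the endocytic receptor megalin, at 90.9. Calb1 of the distal tubule stood at 79.9 and Slc12a1, the salt cotransporter of the thick limb, at 71.8. All 5 lay above the all-gene median. The 7 proximal tubule markers in register had a median of 88.5 and the 7 markers of the loop, distal tubule and collecting duct a median of 93.5. Over all blocks the median of the loop, distal tubule and collecting duct list was lower, at 79.0, against 53.3 for all genes. With all 27 probes of this list in place of each gene's brightest it was 65.7, against 47.2 for all genes. Slc7a7 and Slc6a19, which carry cationic and neutral amino acids across the tubule cell, had means of 96.4 and 88.5. The defining podocyte, macrophage and lymphocyte markers fell outside the blocks in register or were not matched to a probe.

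Markers of other cell types in register ran from dim to bright. Pecam1 of endothelium had a mean percentile of 25.9, with a corrected intensity of 0 in 3 of its 4 readings, and Alas2 of red cells had a mean of 25.7, also at 0 in 3 readings. Cdh5 of endothelium ranged from 10.8 to 76.0, with both Cy3 readings high. The 6 glomerular and endothelial markers had a median of 35.5, with Ly6c1 highest at 93.2. The 9 stromal and muscle markers had a median of 66.2, above that of all genes, with Vim at 95.7, Cnn1 at 81.3 and Pdgfrb lowest at 23.2. The 2 immune cell markers, Mpo and H2-Eb1, had means of 77.8 and 45.8. The liver marker Alb, checked as a sign of another organ, ran from 18.3 in amodiaquine Cy5 of replicate 1 to 97.9 in vehicle Cy3 of the same array. On replicate 2 it read 96.9 in amodiaquine Cy3 and 72.1 in vehicle Cy5, so both Cy3 readings lay above both Cy5 readings. What part other cell types have in any difference below was not tested.

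**Figure D1:**
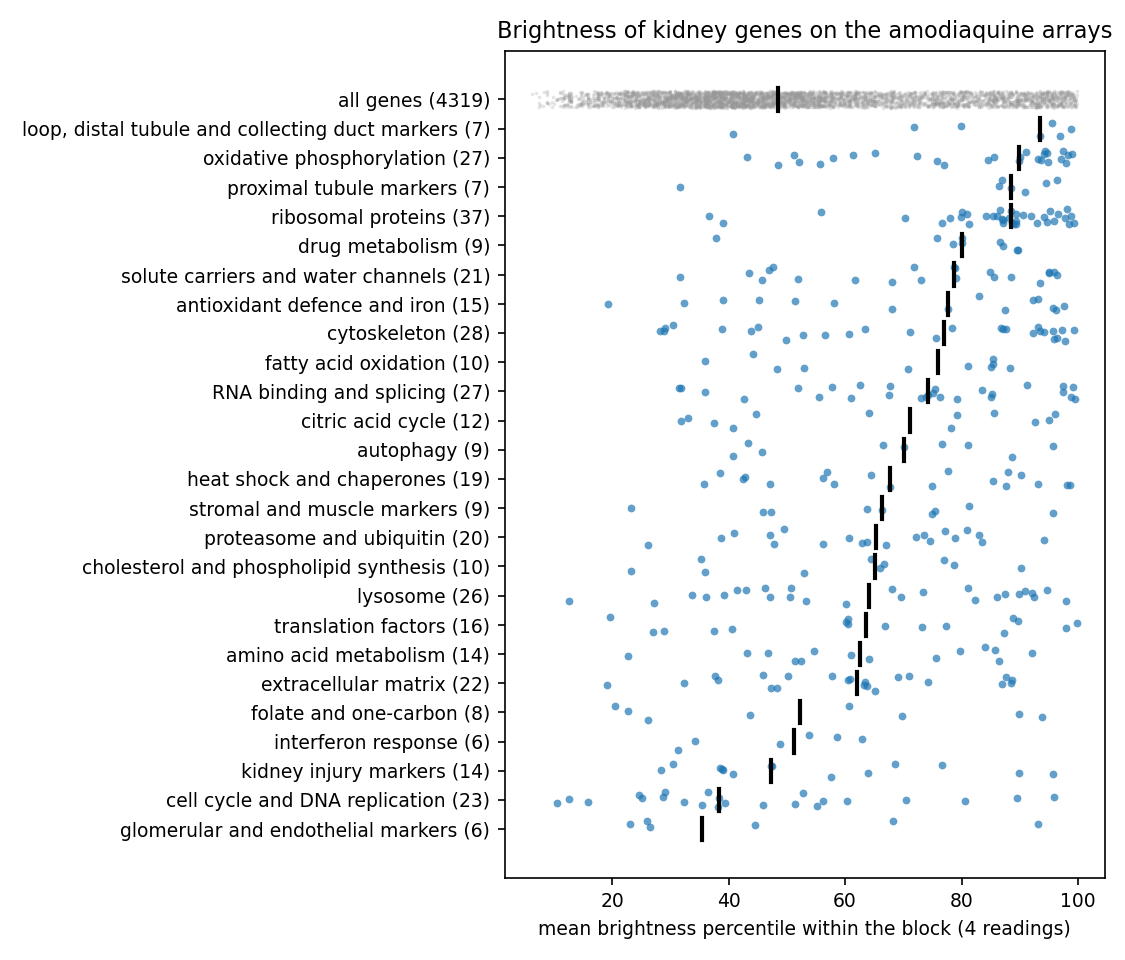
Mean brightness percentile within the block over the 4 readings (horizontal axis), for all 4319 named genes in register (grey) and for the lists with at least 6 such genes (blue points, number in parentheses, black bar for the median). Tubule, ribosomal and oxidative phosphorylation genes have medians of 88.4 to 93.5, against 48.5 for all genes.

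Other groups with a known link to the drug lay between these extremes. The 26 lysosome genes in register had a median percentile of 64.1. Npc1, the lysosomal cholesterol exporter, had a mean of 97.9, the cathepsin gene Ctsz 94.6, the tetraspanin gene Cd63 92.5 and the protease gene Lgmn 90.9, while Psap, which encodes the saposin precursor, stood at 12.6. The 9 autophagy genes had a median of 70.1, and the cargo receptor gene Sqstm1 stood highest at 95.6. The 9 drug metabolism genes had a median of 80.1, with the alcohol dehydrogenase gene Adh1 highest at 89.7. The 15 genes of antioxidant defence and iron storage had a median of 77.7, led by the ferritin light chain gene Ftl1 at 97.6 and the metallothionein gene Mt1 at 96.1. The 14 kidney injury markers had a median of 47.4, near that of all genes. Lcn2, an early marker of tubular injury, had a mean of 40.8, with amodiaquine readings of 39.6 and 67.3 and vehicle readings of 47.1 and 9.38. These readings overlapped, and Lcn2 was not among the measured spots, so a difference was not detectable at this signal.

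The 10 genes with the highest mean percentiles were Eef1a1, Rybp, Ppp2r5b, Sgce, Arel1, Heatr5a, Scaper, Mrpl24, Dock3 and Tinf2. Eef1a1 encodes the elongation factor that brings aminoacyl-tRNA to the ribosome, Rybp a Polycomb-associated protein, Mrpl24 a mitochondrial ribosomal protein and Tinf2 a telomere protein. Eef1a1 also had 4 measured probes, whose Cy5 over Cy3 log2 ratios ran from -1.62 to 0.17. Of 5 genes with more than 1 measured probe, 3 had probes of opposite sign in the amodiaquine over vehicle ratio and 3 in Cy5 over Cy3. A ratio therefore belongs to the probe as much as to the gene.

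The next question was whether the order of genes followed the RNA named on the label or the dye. Across the 234 measured genes, the order agreed most between readings of the same dye on different arrays, that is, between RNAs labelled as different. Spearman's rho was 0.981 for Cy5, which pairs amodiaquine of replicate 1 with vehicle of replicate 2, and 0.940 for Cy3. Between readings labelled as the same RNA in different dyes it was 0.799 for amodiaquine and 0.802 for vehicle. Between the dyes of 1 array it was 0.772 and 0.812. Among these 234 genes, readings of the same labelled RNA were thus about as close as readings of different RNAs on 1 array. These correlations are across genes, which are not independent replicates, and readings of 1 array share its print and hybridisation. Over all 4319 genes the same-dye values were 0.663 and 0.631, and the same-RNA values were 0.544 and 0.624, the latter close to the Cy3 value. The dyes of 1 array gave 0.589 and 0.562 there, below the vehicle value and above the amodiaquine value. Averaged over both dyes, the amodiaquine and vehicle orders of the 234 genes had a rho of 0.975. Each average holds 1 Cy5 and 1 Cy3 reading, so this value follows from the close same-dye pairs and is no separate comparison of the RNAs.

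**Figure D2:**
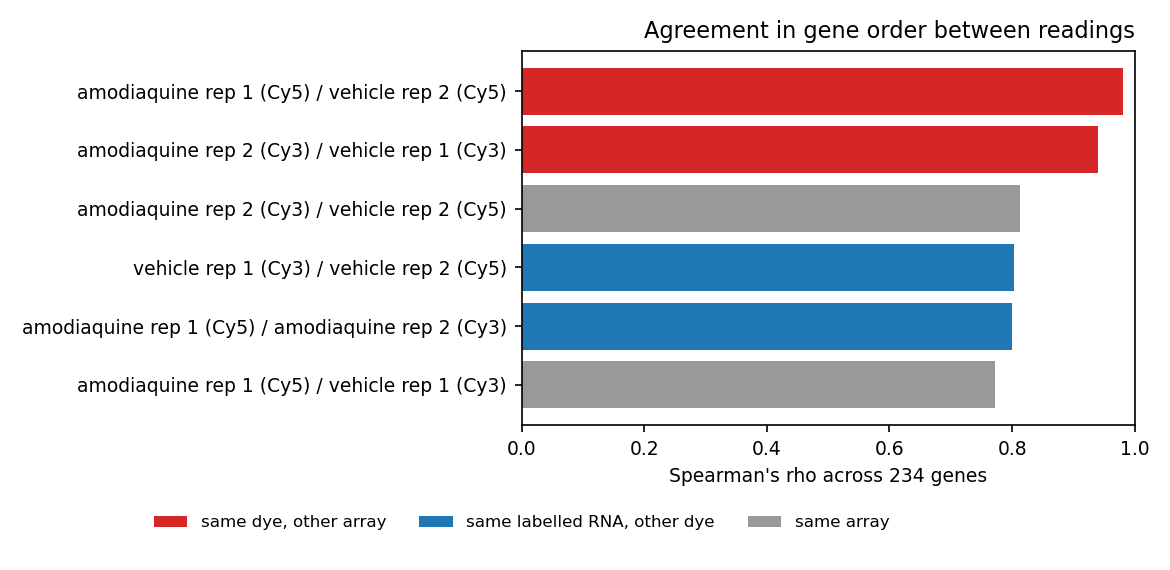
Spearman's rho of brightness percentiles (horizontal axis) across 234 measured genes for the 6 pairs of readings. Bars are red for the same dye on different arrays (0.981 and 0.940), blue for the same labelled RNA in different dyes (0.799 and 0.802) and grey for the 2 dyes of 1 array.

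Counts of genes whose readings did not overlap showed the same. Both amodiaquine percentiles lay above both vehicle percentiles in 13 of the 234 genes (5.56%) and below them in 10 (4.27%). Both Cy5 percentiles lay above both Cy3 percentiles in 90 genes (38.5%) and below them in 77 (32.9%). Over all 4319 genes these shares were 14.1% and 13.0% by labelled RNA and 24.2% and 21.6% by dye. Rpl31, a ribosomal protein gene, was among the 13, at 96.9 and 96.7 in amodiaquine against 94.8 and 95.4 in vehicle. Cycs, cytochrome c, was among the 10, at 93.8 and 92.7 in amodiaquine against 95.2 and 95.6 in vehicle. These gaps are a few places among 480 spots, and both genes were picked after their values were seen.

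The ratios gave the comparison itself. They were normalised within each block, and each was taken both ways. Turned by the labels, the ratio is amodiaquine over vehicle on both arrays. Unturned, it is Cy5 over Cy3 on both arrays. Unturned ratios correlated at 0.77 between the arrays over the 234 genes, so turned ratios correlated at -0.77. Over all 540 measured spots the unturned correlation was 0.54, and it was 0.14 with whole-array loess and 0.16 in the authors' deposited log2 ratios, so how strongly the arrays opposed each other depended on the normalisation and the blocks. Replicates of 1 treatment that oppose each other in this way leave the direction of any amodiaquine response unsettled. A difference between the dyes and a reverse array whose dyes were not exchanged cannot be told apart here. Signs below are therefore given under both readings, and neither is read as a response.

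Turned as labelled, no spot differed between amodiaquine and vehicle past the threshold. In limma's moderated test with Benjamini-Hochberg adjustment over the 540 spots, 0 were called (0%), the smallest adjusted p was 0.999857, and 3 had an unadjusted p under 0.05. Past 1.5-fold with 1 sign on both arrays were 10 spots (1.85%), 5 higher (0.926%) and 5 lower (0.926%), and all 10 lay outside the blocks in register. Their named probes were those of Fam114a2, Tgfbr1, Sfpq, Rrp12, Dhrs7 and Rrp9, names that are not certain there. In register, 0 of 400 spots passed 1.5-fold on both arrays, 0 were called and 0 had an unadjusted p under 0.05. The precision was low. The 95% interval of a turned log2 ratio reached 1.68 to either side at the median of the 540 spots and 1.39 in the most precise one. In the fit on the blocks in register the most precise interval reached 1.29, so no mean under 1.29 could have an interval clear of 0 in either fit. These intervals are not adjusted for the number of spots. A call was made on the adjusted p, which is never smaller than the unadjusted one, so 1.29 is a lower bound.

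Of the 234 genes, 47 (20.1%) had the same turned sign on both arrays, against 187 (79.9%) with the same unturned sign. The SD of the mean ratio across genes was 0.25 turned and 0.67 unturned. Only 3 genes had a turned mean beyond 1 on the log2 scale, St14, Klhl8 and Zfp652, against 33 genes unturned.

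**Figure D3:**
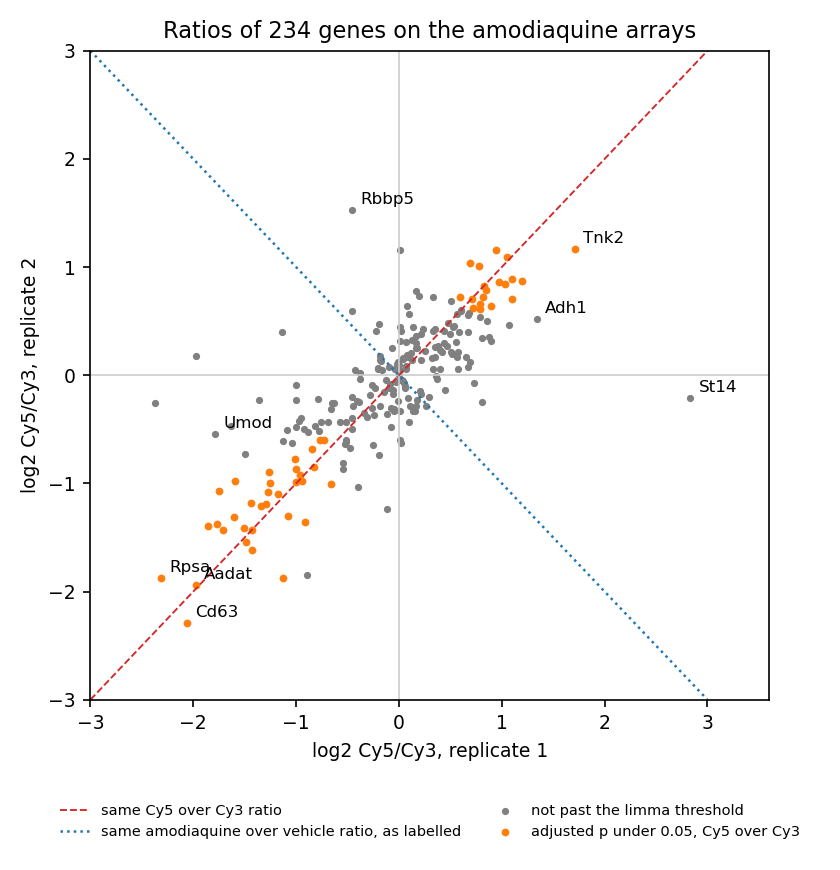
Log2 Cy5/Cy3 of 234 genes on replicate 1 (horizontal axis) and replicate 2 (vertical axis), each point 1 gene. Genes lie along the dashed line of equal Cy5 over Cy3 ratios, with an r of 0.77, and not along the dotted line of equal amodiaquine over vehicle ratios as labelled.

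St14, which encodes the epithelial serine protease matriptase, had the highest turned mean, 1.52 (SE 0.85, n = 2 arrays). Its corrected intensities were 95884 in amodiaquine and 4448 in vehicle on replicate 1, and 5631 in amodiaquine and 51258 in vehicle on replicate 2. The log2 ratios were 2.83 and 0.21, so replicate 1 carried the mean. On replicate 2 the intensities run opposite to the ratio normalised within the block, and both arrays read St14 brighter in Cy5. Its mean was 0.58 with whole-array loess and 0.75 in the authors' deposited log2 ratios. Capza1, an actin capping protein gene, followed at 0.56 (SE 0.56), with 1.23 on replicate 2 and -0.12 on replicate 1. Adh1 had a turned mean of 0.41 (SE 0.67), with 1.34 on replicate 1 and -0.52 on replicate 2. The other genes among the highest 10 were Tinf2, Kifc3, Fkbp9, Timeless, Atp5l, Rps15 and Klf6, with turned means of 0.31 to 0.52. None was called, and their 95% intervals include 0. With whole-array loess the means of Tinf2 (-0.40), Kifc3 (-0.75), Fkbp9 (-0.67) and Atp5l (-0.94) turned negative, and they were negative in the authors' deposited log2 ratios too.

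At the low end, Klhl8 had a turned mean of -1.08 (SE 0.66), Zfp652 of -1.06 (SE 0.86) and Rbbp5, a subunit of histone methyltransferase complexes, of -0.99 (SE 0.51). Rbbp5 had log2 ratios of -0.45 and -1.53 on replicates 1 and 2, but its mean was 0.69 with whole-array loess, 0.01 with the background subtracted, 0.00 with block median centring and 0.86 in the authors' deposited log2 ratios. Umod, the thick limb gene, had a turned mean of -0.62 (SE 0.78), and its arrays opposed each other at -1.78 and 0.54. Its mean became 0.59 with whole-array loess and 0.74 in the authors' deposited log2 ratios. Vim, an intermediate filament gene of stromal cells and injured tubule, had -0.46 and -0.59 and a mean of -0.52 (SE 0.41). Its corrected intensities were 13273 in amodiaquine and 2241 in vehicle on replicate 1 and 6263 in amodiaquine and 16890 in vehicle on replicate 2. On replicate 1 these intensities run opposite to the ratio normalised within the block. The mean of Vim became 0.57 with whole-array loess and 0.74 in the authors' deposited log2 ratios, and its interval of 1.30 on either side spans 0. Mybl2, a cell cycle transcription factor gene, had a mean of -0.46 at its brightest measured probe and 0.40 at its other one. Mybl2 (0.64) and Psmc3ip (0.71) also turned positive with whole-array loess. The rest of the lowest 10 were Proser1, Fbxo17 and Ncoa1, whose means stayed negative there, as did those of Klhl8 and Zfp652. Zfp652, Rbbp5, Umod, Psmc3ip, Vim and Mybl2 all lay in block 26, which held 12 named measured probes. Timeless of the highest 10 lay there too. With block median centring the means of Umod (-0.06), Psmc3ip (0.05), Vim (-0.06) and Mybl2 (0.01) lay near 0, as did that of Rbbp5. Zfp652 stayed at -0.90 and Timeless at 0.34. What the block contributed to these ratios was not tested.

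By list, turned medians of lists with at least 6 measured genes lay between -0.09 and 0.03. The 11 measured ribosomal protein genes had a median of 0.01 and a range of -0.38 to 0.31, and 1 of them had the same sign on both arrays. The 7 measured oxidative phosphorylation genes had a median of -0.09 and a range of -0.32 to 0.32. The 6 measured cytoskeleton genes had a median of -0.01, the 6 of RNA binding and splicing -0.08 and the 6 solute carriers 0.03. The median of all 234 genes was 0.00. Some lists with 1 or 2 measured genes lay further out, at -0.33 for loop, distal tubule and collecting duct markers (Umod and Wnk1), 0.25 for heat shock genes (Stip1 and Canx), 0.41 for drug metabolism (Adh1) -0.46 for cell cycle genes (Mybl2) and -0.52 for kidney injury and stromal markers (Vim in both). Umod, Mybl2 and Vim all lay in block 26. No list member passed 1.5-fold on both arrays. Of the lysosome list, Cd63 had 0.12 (SE 1.31) and Lgmn -0.00 (SE 0.41), and of the tubule markers Slc7a7 had 0.04 (SE 0.50), Slc6a19 0.01 (SE 0.43) and Wnk1 -0.04 (SE 0.47).

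**Figure D4:**
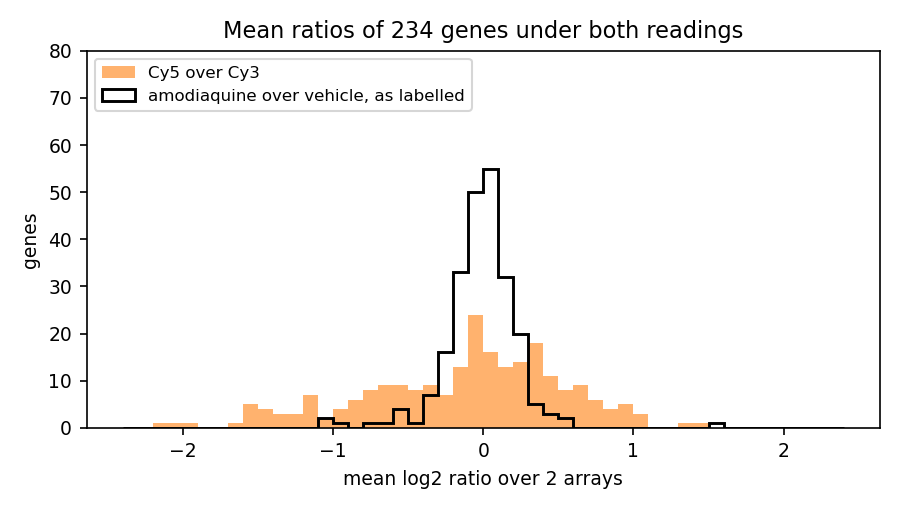
Distribution of the mean log2 ratio over 2 arrays (horizontal axis) for 234 genes, as Cy5 over Cy3 (orange) and as amodiaquine over vehicle by the labels (black outline). The labelled ratios have an SD of 0.25 and the dye ratios an SD of 0.67.

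Unturned, many genes differed between the dyes in the same way on both arrays. Over all 540 spots, 148 (27.4%) passed 1.5-fold on each array with 1 sign, 33 higher (6.11%) and 115 lower (21.3%) in Cy5. The split moved with the scaling, to 75 higher and 73 lower with block median centring (483 spots) and 41 higher and 66 lower with whole-array loess. The limma test called 0 of the 540 (0%) at a smallest adjusted p of 0.107, with 170 at an unadjusted p under 0.05. Fitted on the 400 spots in register, the same test called 101 (25.2%), 26 higher (6.5%) and 75 lower (18.8%) in Cy5. Of those 400 spots, 116 (29.0%) passed 1.5-fold on both arrays, 30 higher (7.5%) and 86 lower (21.5%). The calls below thus hold in that fit and not over all measured spots, and its blocks were chosen in part by how the arrays matched. Among the 234 genes it called 19 higher (8.12%) and 33 lower (14.1%) in Cy5, and 21 (8.97%) and 37 (15.8%) passed 1.5-fold on both arrays in these directions. Of these 52 called genes, 51 kept their Cy5 over Cy3 sign with whole-array loess and 50 in the authors' deposited log2 ratios, the exceptions being Chd1 in both and Ccnt2 in the latter.

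The lowest Cy5 over Cy3 ratios were those of Cd63, Rpsa, Aadat and Cox4i1. Cd63, a tetraspanin of late endosomes and lysosomes, had the lowest mean, -2.18 (SE 0.14, adjusted p = 0.0301, limma in register). Its corrected intensities were 3115 and 2928 in Cy5 and 7857 and 8851 in Cy3 on replicates 1 and 2, and the dyes did not overlap. Its brightness percentiles were 88.8 and 87.7 in Cy5 against 96.7 and 96.9 in Cy3. Rpsa, a small-subunit ribosomal protein gene, had -2.09 (SE 0.18), with percentiles of 82.1 in both Cy5 readings against 95.8 and 94.4 in Cy3. Aadat, an aminotransferase of tryptophan and lysine breakdown, had log2 ratios of -1.98 and -1.94 on the 2 arrays. Cox4i1, a cytochrome c oxidase subunit gene, had -1.86 and -1.39. Each of these lay on the same side in both arrays, although the labels give the dyes opposite RNAs.

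The other genes among the lowest 10 were Itsn2, Crot, Celf2, Mtfr1l, Timeless and Myh10, with means of -1.58 to -1.46. Crot encodes a peroxisomal carnitine acyltransferase, Itsn2 an endocytic scaffold, Celf2 an RNA-binding protein, and Myh10 a non-muscle myosin heavy chain. Also called lower were Ly6c1 (-1.43), Mdh1 (-1.31), Myl6 (-1.24) and Rps18 (-1.13). Members of 1 list took a wide range of values. Of 11 measured ribosomal protein genes, 2 were called lower in Cy5 and 0 higher, and Rpl29, Rpl31 and Rps24 had means of 0.00, -0.01 and 0.09. Of 7 measured oxidative phosphorylation genes, 1 was called lower, and Atp5c1 had -0.07. Over all 234 genes the share called lower was 14.1%.

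Genes higher in Cy5 were led by Tnk2, a non-receptor tyrosine kinase gene, at 1.44 (SE 0.20, adjusted p = 0.0351, limma in register). It read 37685 and 49395 in Cy5 and 7569 and 2744 in Cy3, and its log2 ratios were 1.71 and 1.16. Arid1b, a chromatin remodelling subunit gene, had 1.05 and 1.10, and Trmt5, a tRNA methyltransferase gene, 0.94 and 1.16. Ppp3r1, the calcineurin regulatory subunit gene, had a mean of 1.03 and Cyb5b, an outer mitochondrial membrane cytochrome gene, 0.99. Ldoc1, 2810021J22Rik and Nagk had means of 0.91 to 0.94 and were called. St14 (1.31, adjusted p = 0.299) and Adh1 (0.93, adjusted p = 0.0773) were among the highest 10 and were not called. Selenop, the selenium transport protein gene, was called at 0.72.

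**Figure D5:**
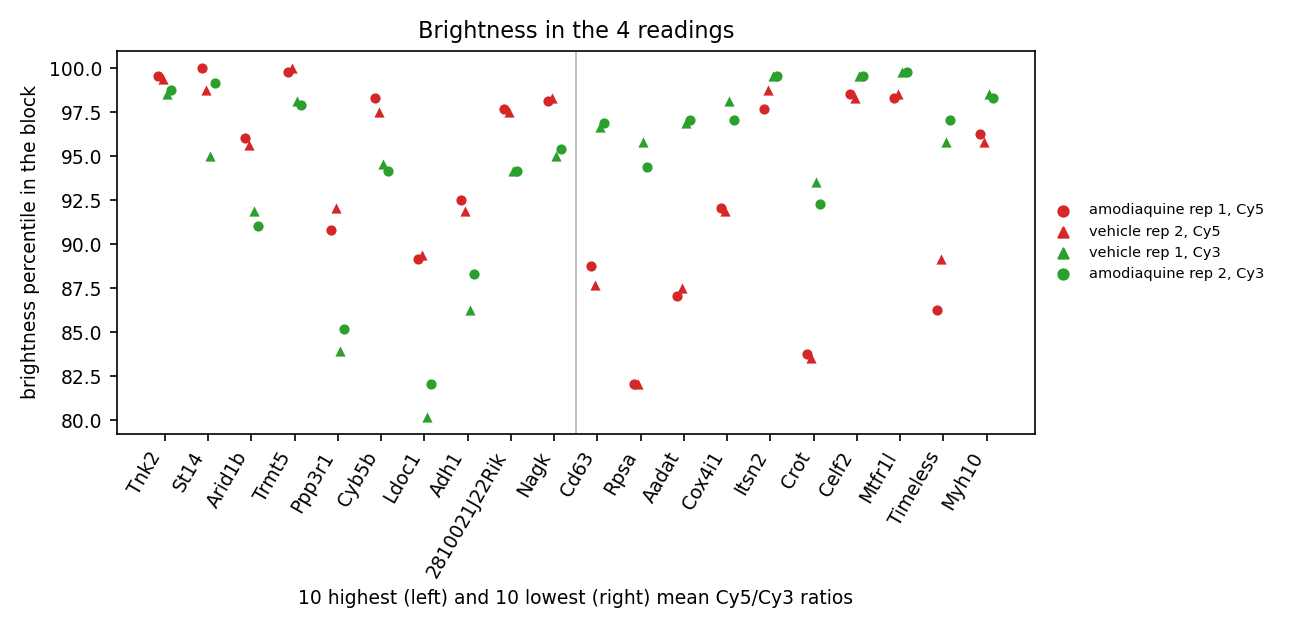
Brightness percentile in the block (vertical axis) of the 10 genes with the highest and the 10 with the lowest mean Cy5/Cy3 ratios (horizontal axis), in each of the 4 readings. Red is Cy5 and green Cy3, circles are amodiaquine and triangles vehicle as labelled. In Cd63 the Cy5 readings, 1 of each RNA, sit at 88.8 and 87.7 and the Cy3 readings at 96.7 and 96.9.

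The same spots were read on the single scans of the other treatments, SP (sulfadoxine and pyrimethamine) and amodiaquine with SP, where the spot passed the same limits in a block in register there. Those scans were also set against vehicle RNA and share that group, so the values are given side by side only. In Cy5 over Cy3, Aadat had -1.96 on the amodiaquine arrays and -2.08 on the SP scan. Timeless had -1.50 against -1.34 on the SP scan and -0.64 on the combination scan. Umod had -1.16 against -1.14 and -0.76, and Itsn2 -1.58 against -0.76 and -1.10. Trmt5 had 1.05 against 0.88 and 0.32, and Tnk2 1.44 against 0.44 and 0.88. Myh10 had -1.46 against -0.23 on the SP scan, and 2810021J22Rik had 0.92 against -0.13 and 0.57. Cox4i1 had -1.63 against -0.65 on the SP scan, Celf2 -1.52 against -1.01 and Mtfr1l -1.51 against -0.44. Ppp3r1 had 1.03 against 0.23 there, and Ldoc1 0.94 against 0.20 and 0.10. Aadat and Umod, the latter not called, lay close together on the amodiaquine and SP scans, and Myh10 and 2810021J22Rik lay far apart. The other genes given here lay nearer 0 on the SP scan than on the amodiaquine arrays. Most were picked for their extreme means on the amodiaquine arrays, and that choice alone favours values nearer 0 on another scan. Selenop, called but not picked as an extreme, had 0.72 on the amodiaquine arrays against 1.39 on the SP scan. No error can be given for a single scan. The amodiaquine values moved with the scaling, as Itsn2 stood at -0.45 and Umod at -0.42 with whole-array loess.

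The position of a block bore on the turned ratio. With 1 loess curve over the whole array in place of 1 per block, the median turned log2 ratio was -1.16 over the 245 measured spots of blocks 1 to 24 and -0.01 over the 295 of blocks 25 to 48. Normalised within blocks these medians were -0.07 and 0.00. With whole-array loess 116 spots passed 1.5-fold on both arrays, 108 of them lower, and with the authors' own deposited log2 ratios 89 did, 72 of them lower. Both of those settings called 1 unnamed spot outside the blocks in register, whose within-block ratios were -6.28 and 3.52.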

How the data were processed

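Kidney RNA was measured on 2-colour arrays. Spots were scanned with ImageQuant 5.0 and measured in ArrayVision 8.0, per the labels and the series' design text. The deposited intensity values are linear foreground and local background per spot and dye. The deposited corrected intensity equalled their difference, or 0, in 100% of spots within 0.002. The signal-to-noise score is as deposited by the authors. The authors' log2 ratios were LOWESS normalised in Avadis 4, per the series' design text. Regressed on Cy5/Cy3 from the scanner files they had a slope of 0.959 for replicate 1 and -0.970 for replicate 2, so they follow the labelled dyes. Their medians were 0.0200 and 0.115, and their centring is not stated. No genome build of the probe design is named.

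Of 23040 spots, 15114 carried a probe for 1 gene, 206 for several and 7720 for none named here, and 8991 of 9107 genes matched RefSeq GRCm38.p6. Probe names were assigned to blocks in a reordered layout, chosen with brightness known. Over all probes of ribosomal proteins the mean percentile was 78.1 under it and 54.0 by spot number. Background was corrected with normexp (offset 50) and ratios by loess within each block (span 0.3), then fitted in limma 3.58.1 under R 4.3.3 with 1 coefficient, 1 residual degree of freedom and Benjamini-Hochberg adjustment over all measured spots at 0.05. The fit was run on simulated ratios with large changes and little noise, as a check of the code only. That check does not measure the power of the fit in these data. The number of arrays limits the precision.

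The register rule allowed shifts of up to 3 rows or columns, and 22 blocks of replicate 1 and 31 of replicate 2 passed it. A gene took its brightest probe for brightness and its brightest measured probe for ratios. Genes named were the 10 brightest, the 10 highest and 10 lowest mean ratios each way, any gene past the limma threshold, and 2 to 4 measured members per list. Other members named, such as Lcn2, were chosen after their values were seen. The members and the 28 gene lists were chosen with earlier results of these data known. Alternatives covered the normalisation, background, filters, register, authors' values, prior, rank base, probe names and each array left out.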

Additional observations from a re-analysis of the deposited data

How the results depend on the processing

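No paired analysis was possible because each array already sets treated against vehicle RNA and the arrays form 1 group. Of the turned ratios, limma called 0 spots in 8 settings and 1 with whole-array loess or the authors' values. The 10 turned spots past 1.5-fold on both arrays became 116 with whole-array loess, 89 with the authors' values, 31 with a background of 0 allowed, 5 with block median centring, 5 at a signal-to-noise ratio of at least 3 and 0 in register. On 1 array alone, 215 to 266 spots passed. Unturned, limma called 101 in register and 0 in the other settings, and the 148 spots past 1.5-fold became 295 with a background of 0 allowed and 215 to 266 on 1 array alone. In register, whole-array loess kept the turned sign of 30 of 44 named genes and the unturned sign of 38 of 44, and the authors' values kept 25 and 38. The size of the mean moved beyond the spread between arrays in 24 (whole-array loess) and 27 (authors' values) of the 44 unturned values.

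Median percentiles over all 48 blocks moved as follows. Ribosomal proteins (88.2) stood at 87.0 ranked over the whole array, 88.9 with raw foreground, 70.4 with names by spot number, and 89.3 to 89.8 on 1 array alone. Oxidative phosphorylation (77.9) stood at 75.5, 82.8, 58.5 and 82.4 in the same order, and at 89.8 in register. Proximal tubule markers (86.2) fell to 46.9 with names by spot number. Immune markers (51.1) stood at 61.8 in register and at 51.8 to 59.9 on 1 array alone. Alternatives added after the data were seen re-read displaced dyes (ribosomal 89.3, oxidative phosphorylation 80.5) or used all probes (81.5, 75.6 and, for proximal tubule, 82.1). Re-reading gave 713 spots and 0 calls either way. The cause of these shifts was not tested, except that fewer spots were tested in register.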
